A study of Mus musculus with 4 samples.

Results

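Transcripts of 10 genes that move glucose and lactate across the cell membrane or act on them inside the cell were compared between subsets of mouse liver natural killer (NK) cells. The genes are the lactate dehydrogenase genes Ldha and Ldhb, the monocarboxylate transporter genes Slc16a1 and Slc16a3, the glucose transporter genes Slc2a1 and Slc2a3, the phosphofructokinase genes Pfkl and Pfkp, and the hexokinase genes Hk1 and Hk2. They were found by symbol among 21025 rows, and each matched 1 row. The members were chosen by their RPKM difference, or lack of one, between TRAIL+ and CD49b+ cells, so these differences are given as a description with no test. Standard errors and counting intervals printed for members do not allow for that choice and are not evidence of a difference. Of the 10, 9 passed the filter for testing and Hk2, below 1 RPKM in every library, did not.

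RNA was sequenced from cells sorted from livers of C57BL/6 mice, in 2 libraries of TRAIL+ cells and 2 libraries of CD49b+ cells. TRAIL+ cells carried the death ligand TRAIL and lacked CD49b, and CD49b+ cells carried CD49b and lacked TRAIL. The gate for both subsets took NK1.1+ NKp46+ cells without TCRb, the beta chain of the T cell receptor, and no genotype or treatment is given for either. By its title the series concerns the transcription factor Nfil3 and its role in NK cell development. The labels do not say whether replicates came from separate mice, so the spread between libraries may be technical. Values are RPKM, that is, reads scaled to gene length and to the library total, a scale that allows levels of different genes to be set side by side. Behind the RPKM lay 3786497 to 4232967 reads a library, so that 1 RPKM corresponded to 7.57 to 8.47 reads for a length of 2000 bases.

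Glucose enters lymphocytes through facilitative transporters, is phosphorylated and held in the cell by hexokinase, and is committed to glycolysis by phosphofructokinase. Lactate dehydrogenase interconverts pyruvate and lactate, and monocarboxylate transporters carry both acids across the membrane together with a proton. Each step is served by several isoforms: the LDH-A subunit is classed as the form of glycolytic tissues and LDH-B as that of oxidative tissues such as heart. NK cells draw on glycolysis when they are activated by cytokines.

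The gate genes were checked first and are no finding. Tnfsf10, which encodes TRAIL, stood at 208 and 189 RPKM in TRAIL+ libraries, against 7.26 and 6.94 RPKM in CD49b+ libraries. The CD49b gene Itga2 was at 5.26 and 1.55 RPKM in TRAIL+ libraries, against 52.1 and 37.0 RPKM in CD49b+ libraries. The markers used for both gates, Ncr1 (NKp46) and Klrb1c (NK1.1), lay between 901 and 1253 RPKM in every library. Markers of Kupffer cells and monocytes, neutrophils, and erythroid cells and platelets differed more between replicate numbers than between subsets. The summed level of 8 Kupffer cell and monocyte markers was 96.0 and 18.8 RPKM in TRAIL+ replicates 1 and 2, against 136 and 15.6 RPKM in CD49b+ replicates 1 and 2. Of that sum, Lyz2 gave 81.9 and 9.21 RPKM in TRAIL+ libraries and 122 and 8.87 RPKM in CD49b+ libraries, with Cd68 at 3.13 to 7.69 RPKM. The 7 listed erythroid and platelet markers with a row summed to 103 and 35.4 RPKM in TRAIL+ libraries and 111 and 5.81 RPKM in CD49b+ libraries, mostly Hbb-b1, with Alas2 next. The 6 neutrophil markers with a row, led by S100a9 and S100a8, summed to 20.0 and 4.12 RPKM in TRAIL+ libraries and 21.6 and 0.644 RPKM in CD49b+ libraries. B cell markers summed to 13.1 to 25.2 RPKM over the 4 libraries, led by Cd79b and Cd79a. Of the 7 endothelial and stellate markers, Pecam1, at 41.4 to 52.7 RPKM, was the only one to pass the filter. The other 6 were below it, among them Col1a1, which did not exceed 0.278 RPKM.

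The subsets held different mixtures of isoforms. In TRAIL+ cells Ldhb was present beside Ldha and Slc16a3 outweighed Slc16a1. CD49b+ cells held nearly no Ldhb and somewhat more Slc16a1 than Slc16a3. Pfkp was the main phosphofructokinase transcript in both subsets and was lower in TRAIL+ cells. The libraries of the subsets did not overlap for 8 of the 10 genes, 3 higher and 5 lower in TRAIL+ cells, and overlapped for Ldha and Slc2a3. Over all 10047 genes tested, 46.8% had libraries that did not overlap. The ratio of group means was at least 2 for 4 members (Ldhb, Slc16a1, Pfkp and Hk2), and for 12.7% of genes tested. Since the rule used this contrast, nothing is read from either count. These are bulk samples, in which fewer cells that express a gene and less RNA per cell cannot be told apart.

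**Figure D1:**
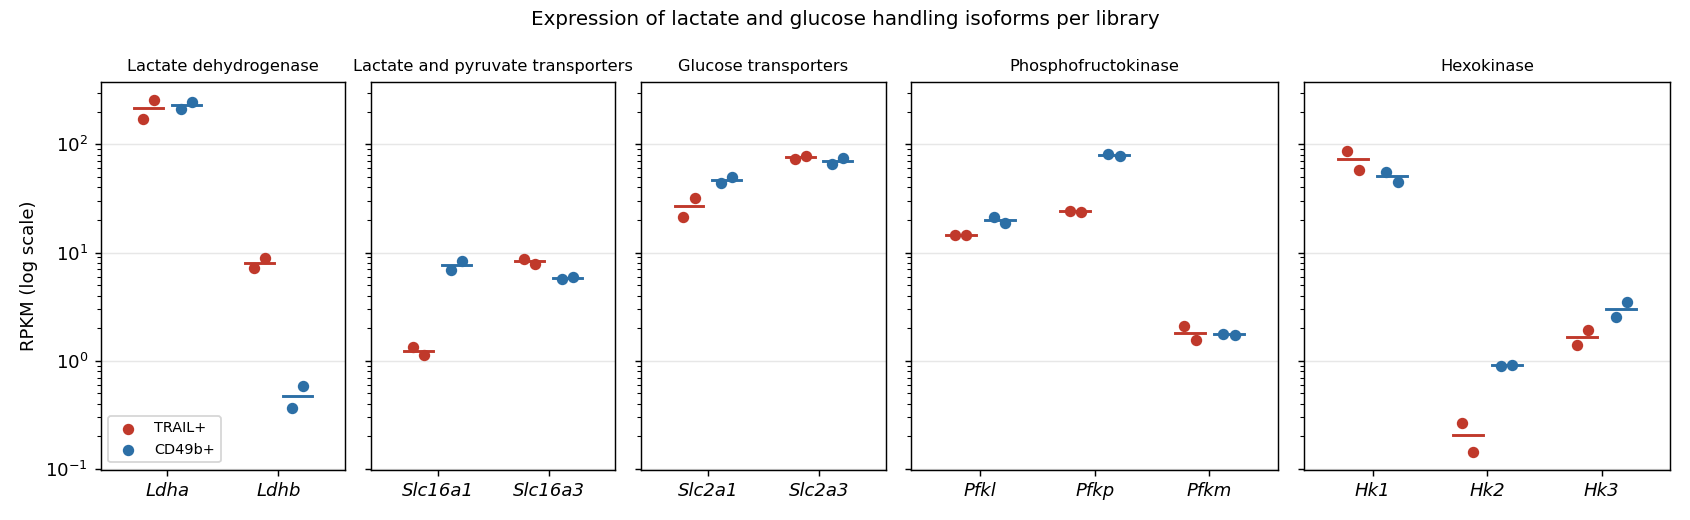
RPKM (log axis) of the 10 genes and of the related isoforms Pfkm and Hk3 in each library, by enzyme or transporter family. Points are libraries, TRAIL+ in red on the left and CD49b+ in blue on the right of each gene, and lines are means of 2 libraries. Ldhb is high in TRAIL+ cells, Slc16a1, Pfkp and Hk2 are low there, and Ldha and Slc2a3 overlap.

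Promoter sequence is shown for the members with the largest ratios above 1 RPKM (Ldhb, Slc16a1 and Pfkp) and for Ldha, the partner isoform of Ldhb. The windows are the 250 bases before the transcription start, from RefSeq on build GRCm38.p6, read 5′ to 3′ on the gene's strand. The RPKM were made on the earlier build mm9. Capitals mark the letters ACGTG and GCGTG on either strand, the core to which hypoxia-inducible factor is known to bind. The motif CACGTG, an E-box, holds ACGTG on both strands and so counts 2 times among the matches.
Ldhb, chr6:142507958-142508207, minus strand: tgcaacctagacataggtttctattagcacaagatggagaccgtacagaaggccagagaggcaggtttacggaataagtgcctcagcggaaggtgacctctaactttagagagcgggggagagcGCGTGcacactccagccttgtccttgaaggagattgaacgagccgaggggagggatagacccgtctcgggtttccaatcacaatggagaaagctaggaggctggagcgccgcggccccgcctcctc
Ldha, chr7:46845554-46845803, plus strand: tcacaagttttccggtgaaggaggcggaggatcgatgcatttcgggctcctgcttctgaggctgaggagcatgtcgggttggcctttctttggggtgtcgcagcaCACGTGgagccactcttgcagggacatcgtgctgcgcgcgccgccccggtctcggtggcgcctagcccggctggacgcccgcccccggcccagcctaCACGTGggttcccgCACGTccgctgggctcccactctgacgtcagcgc
Slc16a1, chr3:104638414-104638663, plus strand: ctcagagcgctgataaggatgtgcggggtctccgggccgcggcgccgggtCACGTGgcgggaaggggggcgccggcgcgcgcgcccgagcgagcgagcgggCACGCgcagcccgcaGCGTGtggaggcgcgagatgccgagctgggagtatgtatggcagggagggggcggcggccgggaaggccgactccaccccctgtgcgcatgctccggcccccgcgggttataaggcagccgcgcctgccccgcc
Pfkp, chr13:6648772-6649021, minus strand: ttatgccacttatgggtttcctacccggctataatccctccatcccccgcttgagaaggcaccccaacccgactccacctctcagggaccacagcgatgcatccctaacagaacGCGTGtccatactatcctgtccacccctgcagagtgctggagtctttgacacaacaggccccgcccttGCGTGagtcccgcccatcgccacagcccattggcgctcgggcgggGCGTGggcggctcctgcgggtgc

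The Ldhb window held 1 match, a GCGTG, and no ACGTG. The Ldha window at this start, the more upstream of 2 in the table, held 5 matches, all ACGTG, of which 4 lay in 2 CACGTG motifs. The window at its other start held 1 match, a GCGTG. Slc16a1 held 4 matches, 2 of each motif, with 1 CACGTG. Pfkp held 3 matches, all GCGTG. Among the other members with a window, Slc16a3, Slc2a1 and Hk2 held 2 matches each and Pfkl held 1, whereas the windows of Hk1 held 3 and 0. Slc2a3 had no entry in the table. Of all 32841 windows of the same length, 38.6% held at least 1 match, 16.6% an ACGTG, 28.2% a GCGTG and 6.0% a CACGTG. CpG pairs numbered 14 in the Ldhb window, 25 in the Ldha window shown, 37 in that of Slc16a1 and 16 in that of Pfkp, against a median of 6 over all windows. A match is a run of letters, not a bound site.

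Ldhb was the member with the largest ratio between the subsets. It stood at 7.19 and 8.95 RPKM in TRAIL+ libraries, against 0.364 and 0.588 RPKM in CD49b+ libraries. Both TRAIL+ libraries lay above both CD49b+ libraries by more than the spread within either group. The ratio of group means was 17, and 13.7 to 22.2 with 1 library left out. The counts were low in CD49b+ cells: 38 and 44 reads in TRAIL+ libraries, against 2 and 3 reads in CD49b+ libraries. Relative to library totals the read ratio was 17, and its exact 95% interval, which covers counting error only, ran from 7.01 to 53.9. On the log2(RPKM + 1) scale the difference was 2.62 ± 0.24 (SE), a scale that understates the change of such a low gene.

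Ldha, which encodes the subunit that prevails in glycolytic tissue, was the most abundant member in all 4 libraries. It stood at 172 and 257 RPKM in TRAIL+ libraries, against 214 and 248 RPKM in CD49b+ libraries. The groups overlapped, and the ratio of means, 0.930, ranged from 0.747 to 1.11 with 1 library left out, so no direction is given. Ldha has processed copies in the mouse genome with which reads may be shared, so its level is less certain than the others. As a share of Ldha and Ldhb together, Ldhb made up 4.0% and 3.37% in TRAIL+ libraries, against 0.170% and 0.236% in CD49b+ libraries. The summed level of both genes averaged 223 ± 61.0 RPKM in TRAIL+ libraries and 231 ± 24.5 RPKM in CD49b+ libraries (SD, n = 2 each). Ldhb thus remained a minor transcript in both subsets while the family total overlapped. The germ-cell isoform Ldhc, the D-lactate dehydrogenase gene Ldhd and Ldhal6b were listed at 0 in every library.

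Markers of T cells and 1 listed marker of hepatocytes also differed between the subsets and are given beside Ldhb. The 7 listed markers summed to 43.3 and 74.1 RPKM in TRAIL+ libraries, against 7.32 and 4.88 RPKM in CD49b+ libraries. All 4 that passed the filter rose in TRAIL+ cells (limma, all genes adjusted), against 4.76% higher over all genes tested. They were Cd3e, at 21.3 and 43.2 RPKM in TRAIL+ and 2.62 and 3.87 RPKM in CD49b+ libraries, Cd8a, at 10.6 and 17.9 RPKM in TRAIL+ and 0.226 and 0 RPKM in CD49b+ libraries, Cd4 and Trat1. Without CD49b+ replicate 2 the calls of Cd4 and Trat1 were lost (limma adjusted p = 0.0648 and 0.0777). The other 3, Cd5, Cd6 and Cd8b1, did not exceed 1.16 RPKM in any library, and Cd5 was at 0.590 and 0 RPKM in TRAIL+ libraries. Cd8a met the filter only through the TRAIL+ libraries, where it was high. The 8 hepatocyte markers summed to 103 and 102 RPKM in TRAIL+ libraries, against 43.1 and 23.6 RPKM in CD49b+ libraries. Of the 5 that passed the filter 1 rose, Trf, which encodes the iron carrier transferrin, at 83.1 and 96.9 RPKM in TRAIL+ libraries, against 21.2 and 22.1 RPKM in CD49b+ libraries (limma adjusted p = 0.00242). Trf thus made up most of the hepatocyte sum in TRAIL+ libraries. Alb, the defining hepatocyte transcript, was at 12.7 and 1.92 RPKM in TRAIL+ libraries, against 14.8 and 0.865 RPKM in CD49b+ libraries. It differed more between replicate numbers than between subsets. The part of the T cell and hepatocyte transcripts in the Ldhb difference and in the other differences was not tested.

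The monocarboxylate transporters had the largest difference in isoform share. Slc16a1 encodes MCT1, a high-affinity carrier that serves both uptake and release of lactate, and Slc16a3 encodes MCT4, a low-affinity carrier typical of cells that export lactate. Slc16a1 stood at 1.33 and 1.13 RPKM in TRAIL+ libraries, against 6.93 and 8.38 RPKM in CD49b+ libraries. Both TRAIL+ libraries were far below both CD49b+ libraries, and the CD49b+ mean was 6.22 times the TRAIL+ mean. The reads were 24 and 19 in TRAIL+ libraries, against 130 and 146 in CD49b+ libraries, and the log2 difference was -1.95 ± 0.22 (SE, on log2(RPKM + 1)). Slc16a3 went the other way, at 8.74 and 7.87 RPKM in TRAIL+ libraries, against 5.67 and 6.00 RPKM in CD49b+ libraries. This difference was small, a ratio of means of 1.42 and a log2 difference of 0.44 ± 0.19, with libraries that did not overlap.

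Slc16a1 accounted for 13.2% and 12.6% of the RPKM of Slc16a1 and Slc16a3 in TRAIL+ libraries, against 55.0% and 58.3% in CD49b+ libraries. The group means were 12.9% ± 0.442 in TRAIL+ libraries and 56.6% ± 2.30 in CD49b+ libraries (SD, n = 2 each), a difference of -43.7 percentage points. The sum of both genes was 9.54 ± 0.758 RPKM in TRAIL+ and 13.5 ± 1.26 RPKM in CD49b+ cells. A share of this kind is formed within a library and does not depend on how libraries are scaled. The Slc16a3 row pools 3 accessions and the gene length behind its RPKM could not be fixed, so its reads are not given.

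The proteins that escort these carriers to the membrane were examined among the other genes of the pathway. Those genes were no part of the rule and were tested, but their lists were chosen with earlier results of these data known. Bsg, which encodes basigin, the usual partner of MCT1 and MCT4, stood at 99.5 and 149 RPKM in TRAIL+ libraries, against 140 and 156 RPKM in CD49b+ libraries, and did not pass (log2 fold change -0.28 ± 0.24, limma adjusted p = 0.647). Emb, which encodes embigin, a related partner, fell in TRAIL+ cells. It stood at 7.65 and 12.9 RPKM in TRAIL+ libraries, against 47.1 and 54.3 RPKM in CD49b+ libraries (log2 fold change -2.23 ± 0.27, limma adjusted p = 0.00744). The CD49b+ libraries were thus well above the TRAIL+ libraries for Emb, as they were for Slc16a1. Among other family members, Slc16a10, which encodes a carrier of aromatic amino acids, rose. It stood at 23.0 and 21.3 RPKM in TRAIL+ libraries, against 1.62 and 1.08 RPKM in CD49b+ libraries (log2 fold change 3.31 ± 0.22, limma adjusted p = 0.00109). Slc16a6 also rose, at 30.3 and 26.6 RPKM in TRAIL+ libraries, against 11 and 8.28 RPKM in CD49b+ libraries (limma adjusted p = 0.0117), a call lost without CD49b+ replicate 2 (limma adjusted p = 0.102). Slc16a7, which encodes the pyruvate carrier MCT2, was low, at 0.709 and 0.435 RPKM in TRAIL+ libraries, against 1.46 and 1.47 RPKM in CD49b+ libraries, and did not pass (limma adjusted p = 0.208). In all, 2 of the 6 tested genes of this list rose, 1 fell and 3 did not pass, with a median log2 fold change of -0.43 against 0.01 over all genes tested. The other 8 of 14 listed genes were below the filter.

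**Figure D2:**
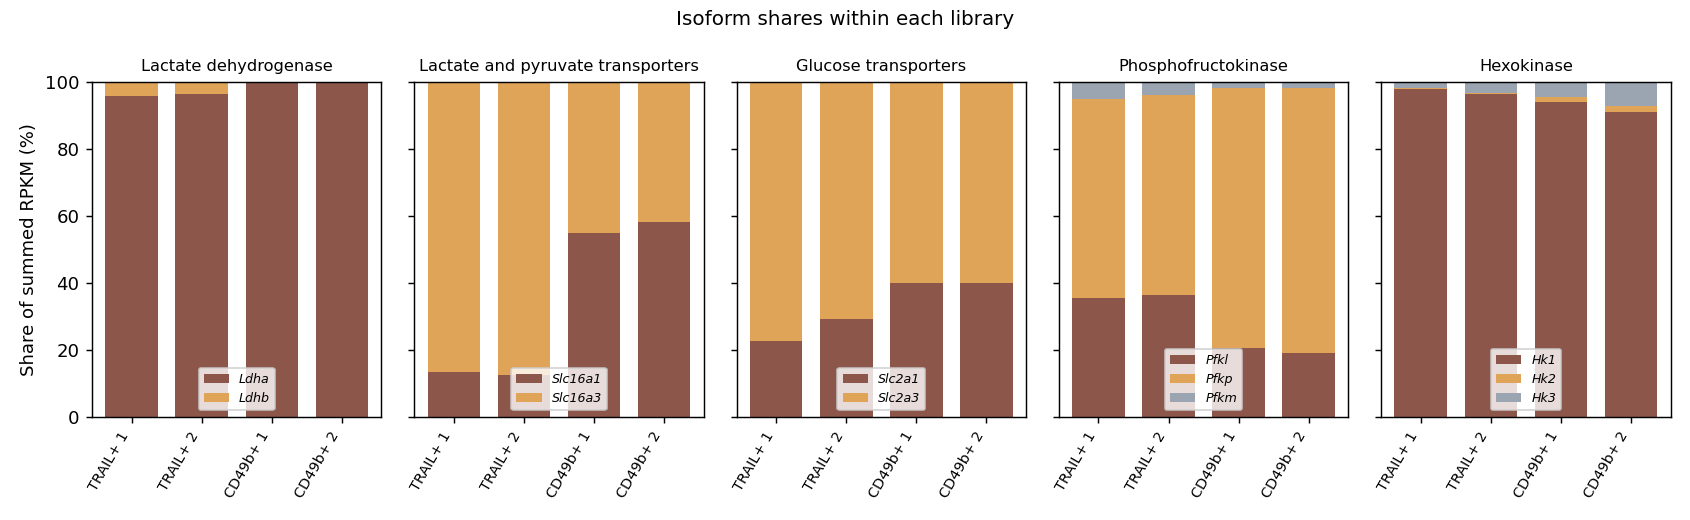
Share (%) of each isoform in the summed RPKM of its family, within each library. Bars are single libraries, the 2 TRAIL+ libraries left of the 2 CD49b+ libraries. Slc16a1 makes up 12.6% to 13.2% of its pair in TRAIL+ libraries and 55.0% to 58.3% in CD49b+ libraries, and the Pfkp share is also lower in TRAIL+ libraries.

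Phosphofructokinase, the enzyme of the first committed step of glycolysis, is built of liver (Pfkl), platelet (Pfkp) and muscle (Pfkm) type subunits. Pfkp stood at 24.4 and 23.6 RPKM in TRAIL+ libraries, against 80.5 and 78.1 RPKM in CD49b+ libraries. The spread within each subset was small beside the gap between them, and the CD49b+ mean was 3.31 times the TRAIL+ mean. The log2 difference was -1.68 ± 0.15 (SE), from 398 and 358 reads in TRAIL+ libraries and 1366 and 1231 reads in CD49b+ libraries. Pfkl was also lower, at 14.5 and 14.4 RPKM in TRAIL+ libraries, against 21.4 and 18.6 RPKM in CD49b+ libraries, with a ratio of means of 0.722. Pfkm, no member, was low in all libraries, at 2.08 and 1.55 RPKM in TRAIL+ and 1.77 and 1.74 RPKM in CD49b+ libraries, and did not pass the test (limma adjusted p = 0.980).

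The summed phosphofructokinase level averaged 40.3 ± 1.02 RPKM in TRAIL+ libraries and 101 ± 3.71 RPKM in CD49b+ libraries (SD, n = 2 each). It was the one family here with a total differing by over 2 times, the CD49b+ total being 2.51 times that of TRAIL+ cells. Pfkp supplied 59.5% and 59.7% of it in TRAIL+ libraries, against 77.6% and 79.3% in CD49b+ libraries. It was the most abundant subunit in both subsets.

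Of the glucose transporters, Slc2a1 encodes GLUT1, the widely expressed carrier of dividing and activated lymphocytes, and Slc2a3 encodes GLUT3, a carrier of high affinity. Slc2a1 stood at 21.3 and 32.1 RPKM in TRAIL+ libraries, against 43.9 and 49.9 RPKM in CD49b+ libraries. The TRAIL+ libraries lay below the CD49b+ libraries but differed among themselves, and the CD49b+ mean was 1.76 times the TRAIL+ mean. The log2 difference was -0.82 ± 0.23 (SE). Slc2a3 stood at 73.4 and 78.2 RPKM in TRAIL+ libraries, against 66.0 and 75.4 RPKM in CD49b+ libraries, and the groups overlapped. Slc2a3 was the more abundant of the pair in every library. Slc2a1 made up 22.5% and 29.1% of the pair in TRAIL+ libraries, against 40.0% and 39.8% in CD49b+ libraries, and the summed level of the pair overlapped between the subsets.

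Of 11 other hexose transporter genes, 4 passed the filter, 1 rose, 1 fell and 2 did not pass, and 7 were listed at 0 in every library, among them Slc2a2 and Slc2a4, the carriers of liver and of muscle and fat. Slc2a8, which encodes the intracellular carrier GLUT8, rose, at 22.6 and 24.6 RPKM in TRAIL+ libraries, against 7.79 and 7.29 RPKM in CD49b+ libraries (log2 fold change 1.53 ± 0.17, limma adjusted p = 0.00619). This call was lost without CD49b+ replicate 2 (limma adjusted p = 0.0643). Slc2a6 did not pass (limma adjusted p = 0.105) but did without TRAIL+ replicate 2 (limma adjusted p = 0.0357). Slc2a10, which encodes GLUT10, fell, at 0.0733 and 0.0788 RPKM in TRAIL+ libraries, against 2.18 and 3.41 RPKM in CD49b+ libraries (limma adjusted p = 0.0148). It met the filter only through the CD49b+ libraries, where it was high. It rested on 2 reads over both TRAIL+ libraries and 76 over both CD49b+ libraries, so that CD49b+ cells had 36.6 times the reads per library total (exact 95% interval for counting error 9.78 to 307).

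Hexokinase transcripts came almost wholly from Hk1, the broadly expressed isoform. Hk1 stood at 86.7 and 58.2 RPKM in TRAIL+ libraries, against 55.9 and 45.1 RPKM in CD49b+ libraries. The TRAIL+ libraries were higher without overlap, but by little at the nearest pair, and the ratio of means was 1.43, or 1.15 to 1.72 with 1 library left out. The Hk1 row pools 2 accessions, so transcripts from its different starts are not separated. Hk2, the inducible isoform of muscle and of many activated or tumour cells, stood at 0.267 and 0.143 RPKM in TRAIL+ libraries, against 0.897 and 0.920 RPKM in CD49b+ libraries. It was near the limit of detection in both subsets, with 6 and 3 reads in TRAIL+ libraries, against 21 and 20 in CD49b+ libraries. The TRAIL+ reads were 0.228 of the CD49b+ reads per library total (exact 95% interval for counting error 0.0975 to 0.476).

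Hk2 made up 0.302% and 0.238% of the RPKM of Hk1, Hk2 and Hk3 in TRAIL+ libraries, against 1.51% and 1.86% in CD49b+ libraries. Hk3, the myeloid isoform, stood at 1.39 and 1.91 RPKM in TRAIL+ libraries, against 2.52 and 3.51 RPKM in CD49b+ libraries, and did not pass (limma adjusted p = 0.282). The summed hexokinase level was 74.3 ± 19.9 RPKM in TRAIL+ and 54.4 ± 6.98 RPKM in CD49b+ cells, following Hk1.

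Ordered by mean level, TRAIL+ cells held Ldha (215 RPKM) above Slc2a3 (75.8) and Hk1 (72.4), then Slc2a1 (26.7) and Pfkp (24.0), Pfkl (14.5), Slc16a3 (8.31) and Ldhb (8.07), Slc16a1 (1.23) and Hk2 (0.205). Slc2a3 and Hk1 overlapped, as did Slc2a1 and Pfkp, and Slc16a3 and Ldhb. CD49b+ cells held Ldha (231 RPKM), Pfkp (79.3), Slc2a3 (70.7), Hk1 (50.5) and Slc2a1 (46.9), Pfkl (20.0), Slc16a1 (7.65), Slc16a3 (5.84), Hk2 (0.909) and Ldhb (0.476). There, of neighbours in the order, Hk1 and Slc2a1 overlapped. Pfkp thus stood below Slc2a1 in the order of TRAIL+ cells and directly below Ldha in that of CD49b+ cells, and Ldhb stood above Slc16a1 and Hk2 in TRAIL+ cells and last in CD49b+ cells.

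The rest of the pathway was tested to set these isoforms in context. Its lists were chosen with earlier results of these data known. Of 135 other genes of glucose and lactate metabolism in 10 lists, 102 passed the filter, and of these 5 rose in TRAIL+ cells, 4 fell and 93 did not pass (limma, all genes adjusted, threshold 0.05). That is 8.82% of those tested, against 8.62% of all 10047 genes (4.76% higher and 3.86% lower), so the share is near the background. Without CD49b+ replicate 2, 2 rose and 4 fell. The median log2 fold change was 0.02, against 0.01 over all genes. The 9 called genes came from 5 of the lists: 3 from the monocarboxylate transporters and partners, 2 each from the hexose transporters and the hypoxia response genes, and 1 each from the pyruvate entry list and the glycogen, hexosamine and serine list. Of the 4 that fell, Slc2a10, Vegfa and Ndrg1 met the filter only through the CD49b+ libraries, where they were high.

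**Figure D3:**
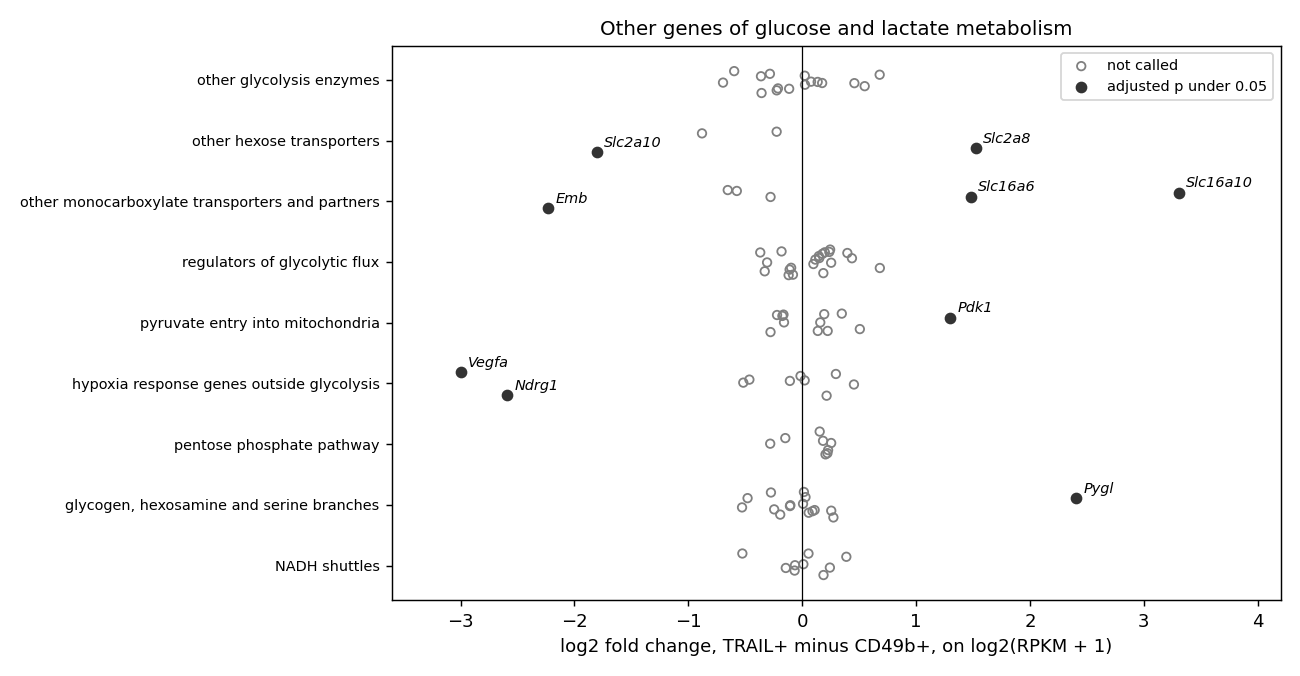
Log2 fold change (TRAIL+ minus CD49b+, on log2(RPKM + 1)) of 102 tested pathway genes other than the 10 members, by list. Filled points passed a limma adjusted p of 0.05 over all genes and open points did not, and vertical scatter within a list has no meaning. Of the 9 called genes, which are named, 5 lie to the right of 0 and 4 to the left.

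Of the 16 other glycolysis enzymes tested, 0 passed by limma, 2 had an unadjusted p under 0.05 and 0 passed by voom. Their log2 fold changes lay between -0.70 and 0.68. The second aldolase gene Aldoc was low, at 0 and 1.39 RPKM in TRAIL+ libraries, against 1.52 and 1.49 RPKM in CD49b+ libraries. Its reads were 0 and 9 in TRAIL+ and 11 and 10 in CD49b+ libraries, and it did not pass (limma adjusted p = 0.505). Its log2 fold change was -1.32 without TRAIL+ replicate 2, which left the library with 0 reads, and -0.07 without TRAIL+ replicate 1. The highest log2 fold change of the 16 was that of the aldolase gene Aldoa. It stood at 360 and 451 RPKM in TRAIL+ libraries, against 237 and 266 RPKM in CD49b+ libraries (limma adjusted p = 0.125). It passed without TRAIL+ replicate 1 (limma adjusted p = 0.0274) and after a gene length correction (limma adjusted p = 0.0347). The phosphoglucose isomerase gene Gpi1 stood at 80.7 and 99.6 RPKM in TRAIL+ libraries, against 62.2 and 67.9 RPKM in CD49b+ libraries (limma adjusted p = 0.235). Ratios of means were 0.781 for the triose phosphate isomerase gene Tpi1, 0.834 for the enolase gene Eno1 and 0.763 for the phosphoglycerate mutase gene Pgam1. They were 1.10 for the phosphoglycerate kinase gene Pgk1 and 1.06 for the pyruvate kinase gene Pkm, and none of these 5 passed. Of the 5, Tpi1 and Pgam1 were lower in TRAIL+ cells with libraries that did not overlap, as was so for 46.8% of all genes tested in either direction. The row that holds the Gapdh accession carries the symbol of another gene and stood at only 2.10 to 5.33 RPKM. Gapdh, Pgk1, Aldoa and other enzymes of this pathway have processed copies in the genome, so their levels are uncertain.

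Regulators of glycolytic flux were also without a call, with 0 of 21 tested by limma, 2 at an unadjusted p under 0.05 and 0 by voom. Hif1a, the oxygen-regulated factor that drives glycolytic genes, stood at 26.4 and 23.8 RPKM in TRAIL+ libraries, against 26.8 and 27.8 RPKM in CD49b+ libraries (limma adjusted p = 0.799). Myc, at 41.8 and 24.7 RPKM in TRAIL+ libraries and 41.2 and 29.4 RPKM in CD49b+ libraries, differed more between replicate numbers than between subsets. Txnip, which encodes an inhibitor of glucose uptake, was abundant, at 378 and 429 RPKM in TRAIL+ libraries, against 302 and 377 RPKM in CD49b+ libraries (limma adjusted p = 0.627). The genes of the bifunctional regulators of phosphofructokinase, Pfkfb3 and Pfkfb4, had limma adjusted p-values of 0.391 and 0.808. A p that misses the threshold does not show equal levels.

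Among genes that govern entry of pyruvate into mitochondria, 1 of 12 tested rose and 0 fell (8.33%, against 8.62% called over all genes tested). Pdk1, the kinase that switches off pyruvate dehydrogenase, stood at 13.5 and 13.9 RPKM in TRAIL+ libraries, against 4.08 and 6.03 RPKM in CD49b+ libraries (log2 fold change 1.30 ± 0.23, limma adjusted p = 0.0272). The call was lost without CD49b+ replicate 1 (limma adjusted p = 0.243) and without CD49b+ replicate 2 (limma adjusted p = 0.0707). The pyruvate carrier genes Mpc1 and Mpc2 had ratios of means of 1.53 and 1.30 and did not pass (limma adjusted p = 0.309 and 0.446). Of the list of glycogen, hexosamine and serine branches, 1 of 16 tested genes rose and 0 fell (6.25%, against 8.62% called over all genes tested). It was Pygl, the glycogen phosphorylase of liver and blood cells, at 33.0 and 27.0 RPKM in TRAIL+ libraries, against 5.99 and 3.85 RPKM in CD49b+ libraries (log2 fold change 2.41 ± 0.25, limma adjusted p = 0.00456).

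Of the hypoxia response genes outside glycolysis, 2 of 10 tested were lower in TRAIL+ cells, 0 were higher and 8 did not pass. That is 20.0% of those tested, against 8.62% called over all genes tested (3.86% lower). With so few genes no direction is read for the list. Vegfa, the vascular growth factor, stood at 0.294 and 0 RPKM in TRAIL+ libraries, against 10.4 and 6.26 RPKM in CD49b+ libraries (limma adjusted p = 0.00456). It had 5 reads in TRAIL+ replicate 1 and 0 in TRAIL+ replicate 2, and the CD49b+ libraries had 55.2 times the reads per library total (exact 95% interval for counting error 23.4 to 171). Without TRAIL+ replicate 1 the TRAIL+ level was 0, and without TRAIL+ replicate 2 the CD49b+ mean was 28.4 times it. Ndrg1, a stress-induced gene, stood at 0.423 and 0.545 RPKM in TRAIL+ libraries, against 7.72 and 8.14 RPKM in CD49b+ libraries (log2 fold change -2.59 ± 0.21, limma adjusted p = 0.00248). Vegfa and Ndrg1 met the filter only through the CD49b+ libraries, where they were high. The median of the list was -0.06, against 0.01 over all genes.

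In the pentose phosphate pathway, which branches from the product of hexokinase, 0 of 8 tested genes passed by limma, 0 had an unadjusted p under 0.05 and 0 passed by voom. In the shuttles that carry NADH electrons into mitochondria, a route that competes with lactate dehydrogenase for NADH, 0 of 9 passed by limma, 1 had an unadjusted p under 0.05 and 0 passed by voom. Their log2 fold changes lay between -0.28 and 0.25 and between -0.53 and 0.39. The lowest of the shuttle genes, Gpd2, passed without TRAIL+ replicate 1 (limma adjusted p = 0.0389).

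**Figure D4:**
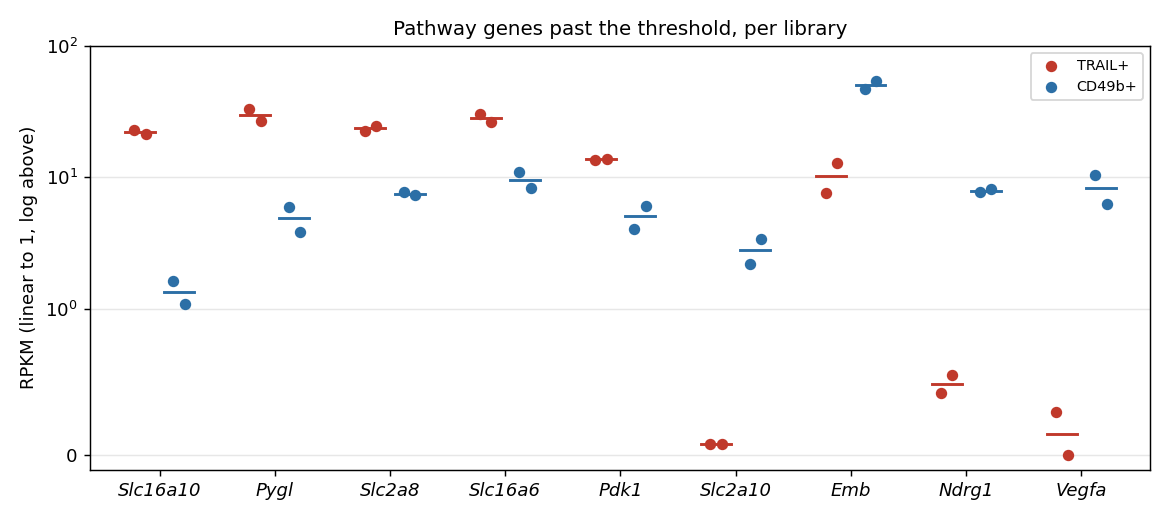
RPKM (linear up to 1, log above) of the 9 pathway genes past the threshold in each library, ordered by log2 fold change. Points are libraries, TRAIL+ in red on the left and CD49b+ in blue on the right of each gene, and lines are means of 2 libraries. The libraries of the subsets do not overlap for any of the 9, and Slc2a10, Ndrg1 and Vegfa are below 1 RPKM in TRAIL+ cells.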

How the data were processed

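Sorted-cell RNA was sequenced as polyA libraries. The authors deposited RPKM per gene, per the file headers, after alignment with TopHat 1.4.1 to mm9, per the submitters' processing notes. How reads were counted, with which annotation and filters, and whether strand was used, is not given in the sources used here. Rows were named by accession (20661), symbol (191) or synonym (65) from RefSeq of GRCm38.p6, and 108 kept the file's name. Promoters came from RefSeq, where 9 of 10 members matched.

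The totals and whole reads behind the RPKM were worked out from their steps, within a relative tolerance of 1e-08 for 100% of 13681 rows above 0. The gene length so found was within 10% of the annotated one for 81.1% of 10859 single-accession rows, and reads of the others are less certain. The 10047 genes that reached 1 RPKM in 2 or more libraries were tested as log2(RPKM + 1) by limma 3.58.1 under R 4.3.3 (lmFit, eBayes with trend, 2 residual degrees of freedom), TRAIL+ minus CD49b+, with Benjamini-Hochberg adjustment over all of them. The test was also run on simulated reads from independent libraries with a fixed dispersion. The simulation held no effect shared by libraries of the same replicate number, so it cannot show how the test behaves under such an effect. Mean ± SD is over 2 libraries. Named were the members, fixed comparators, up to 4 called genes a direction of each pathway list, the gate genes and the 2 most abundant markers of each other cell type. Ncr1, Klrb1c, Cd4, Trat1, Cd5, Cd6, Cd8b1, Slc2a6, Aldoc, Gpd2, Arrdc4 and genes listed at 0 were named after their values were seen. The members and lists were chosen with earlier results of these data known. Alternatives varied the pseudocount, filter, scaling, replicate block, libraries and tool (voom on the reads). A gene length correction was chosen after seeing the data.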

Additional observations from a re-analysis of the deposited data

How the results depend on the processing

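Isoform shares, which need no library scaling, kept their direction under every alternative run. For none of the shares did the libraries of the subsets overlap, so leaving out 1 library could not reverse a direction. Taking differences within replicate numbers gives the reported value by construction. With reads not divided by gene length the difference (TRAIL+ minus CD49b+) was 2.36 percentage points for Ldhb, -41.6 for Slc16a1 and -1.75 for Hk2, against 3.48, -43.7 and -1.42 as reported. The -41.6 assumes 1 possible length for Slc16a3, whose reads are known only up to a factor, so it is not a firm value. With 1 library left out the reported difference ranged from 3.16 to 3.80 for Ldhb, -45.4 to -42.1 for Slc16a1, -17.4 to -10.8 for Slc2a1, -19.7 to -18.1 for Pfkp and -1.59 to -1.24 for Hk2. Counts of called genes moved more. The 478 higher and 388 lower genes became 245 to 777 and 198 to 763 with 1 library left out, highest without TRAIL+ replicate 1 and lowest without CD49b+ replicate 1. The length correction gave 693 higher and 580 lower genes. The pathway counts of 5 higher and 4 lower became 2 to 6 and 4 to 6 with 1 library left out. With the replicate number as a block, 1049 genes were higher and 833 lower, and 8 and 6 of the pathway genes, the added ones being Aldoa (limma adjusted p = 0.0121), Gpi1 (0.0403) and Arrdc4 (0.0462), a regulator of glucose uptake, as higher, and Slc2a6 (0.0283) and Gpd2 (0.0498) as lower. Deviations from the group mean of libraries with the same number correlated at 0.563. With 2 libraries a group, both pairs give this same value by construction, so it is 1 observation and not 2. It is a hint from the data and not a pairing given by the labels. Pdk1 also lost its call when every gene above 0 was tested (limma adjusted p = 0.0587). The cause of these shifts was not tested. Depth limits Ldhb in CD49b+ cells, and Hk2, Slc16a7, Slc2a10, Vegfa and Aldoc in TRAIL+ cells, where a library held 6 reads or fewer. It also limits Ndrg1, which was below 1 RPKM in TRAIL+ libraries, and Cd8a, which was below 1 RPKM in CD49b+ libraries.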

Other observations

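Cell cycle genes, whose expression often accompanies glucose use in lymphocytes, were measured for context. Of 12 tested, 0 passed by limma, 0 had an unadjusted p under 0.05 and 0 passed by voom, with a median log2 fold change of -0.03. Top2a, chosen after its values were seen, passed without TRAIL+ replicate 1 (limma adjusted p = 0.0261). Mki67, also chosen after its values were seen, stood at 3.14 and 0.236 RPKM in TRAIL+ replicates 1 and 2, against 1.78 and 0.580 RPKM in CD49b+ replicates 1 and 2.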
